A study of Mus musculus with 4 samples.

Results

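The 10 integrin subunit genes described here are Itga1, Itga3, Itga5, Itga6, Itga7, Itga8 and Itgav, which encode alpha subunits, and Itgb1, Itgb3 and Itgb5, which encode beta subunits. They were chosen by name, as every probe that is not a control and whose gene name on the array equals one of the 10, out of 27827 gene names. The rule itself is by name and uses no measured value, though the genes were picked with earlier results of these data known. These genes have 27 probes on the array, of which 20 entered the test and 18 were well above background in all 4 lines.

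The study asked how gene expression, and with it the contact of cells with their matrix, differs in mouse embryonic fibroblasts (MEFs) that lack IP6K1, an inositol hexakisphosphate kinase that makes the pyrophosphate IP7. Each of the 4 MEF lines came from 1 E14 embryo, and all embryos came from 1 heterozygous female mated with a heterozygous male. Of these, 2 lines were Ip6k1+/+ and 2 were Ip6k1-/-, a deletion in the whole animal, and the strain and sex of the embryos are not given in the sources used here. All 4 lines, controls included, were immortalised with SV40 large T antigen, frozen, thawed, passaged and harvested by trypsin while growing. Each line was hybridised to 1 single-colour array, and all 4 arrays lay on 1 slide. With 2 lines per genotype, a difference between genotypes is set against the spread between lines of different embryos. The SE, interval and p from limma also draw on the variance of all probes tested. They are therefore not the spread of a probe's own lines alone. An exact permutation test could not give a two-sided p below 0.333 for any single value.

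Integrins are receptors of the cell surface in which 1 alpha and 1 beta subunit pair to bind the extracellular matrix outside the cell and the actin cytoskeleton inside it. The alpha subunit largely sets the ligand. Integrin alpha1 binds collagens, alpha3, alpha6 and alpha7 bind laminins, and alpha5, alpha8 and alphaV bind ligands with the tripeptide Arg-Gly-Asp (RGD), such as fibronectin, vitronectin and nephronectin. The beta1 subunit pairs with all 7 of these alpha subunits, while beta3 and beta5 pair with alphaV. In fibroblasts, alpha5 beta1 and the alphaV integrins hold the cell to fibronectin and vitronectin at focal adhesions.

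Values are log2 signal minus the 75th percentile of the same array, so that 0 is the level of that percentile and a difference of 1 is 2-fold. A probe's own brightness enters its level, and levels of different probes are therefore not set against each other. Line values are given in the order Ip6k1+/+ replicate 1, Ip6k1+/+ replicate 2, Ip6k1-/- replicate 1, Ip6k1-/- replicate 2 unless stated otherwise. Differences are Ip6k1-/- minus Ip6k1+/+.

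The array reads each gene through probes of 60 bases, and which stretch of the transcript a probe reads bears on the results for Itga8, Itgb3, Itgb1 and Itga1. The first 30 bases of each probe are shown, except for Itga8 A_52_P658911 and Itga1 A_52_P459929, which are given whole across the exon junction they span, and except for the first Itgb3 probe, of which bases 31 to 60 are shown. All are in lower case, and capitals mark a run of TG in that Itgb3 probe. Coordinates are on mouse build mm9, as in the array files. An exon or UTR label was not analysed here for probes that lie in 1 piece on the genome.
Itga8 A_51_P309917, chr2:12028634-12028693, minus strand: agtcaaaacatggtttcccatggtctcaac
Itga8 A_51_P309920, chr2:12028462-12028521, minus strand: catacattggtattctcgaggagtctatct
Itga8 A_52_P658911, chr2:12077139-12081989, minus strand, across an exon junction: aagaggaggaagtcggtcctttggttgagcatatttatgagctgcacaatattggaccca
Itgb3 A_51_P237893, chr11:104528490-104528560, plus strand: acaattTGTGTGTGTGTGtatgggtgggat
Itgb3 A_52_P553890, chr11:104531672-104531731, plus strand: ccacagcaacatcagagtctttgtccattt
Itgb1 A_52_P351816, chr8:131246349-131246408, plus strand: tggacgcttactgcaggaaagagaacagtt
Itgb1 A_52_P69236, chr8:131250931-131255949, plus strand, across an exon junction: aactatggacgtaaagctggtctctgagtt
Itga1 A_52_P459929, chr13:115756765-115758419, minus strand, across an exon junction: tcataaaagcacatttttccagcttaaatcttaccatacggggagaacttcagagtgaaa
The first pair of Itga8 probes lies within 172 bases (start to start) and the third lies far from them. The first Itgb3 probe covers 71 genomic bases with 60 probe bases. Its motif TGTGTGTGTGTG, or the reverse complement CACACACACACA, is present in 12 of the 41174 probes of the array (0.0291%). Of the 27 integrin probes, 1 holds it.

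Over all 21573 probes tested, 3 passed an adjusted p of 0.05 (0.0139%), and none of the 20 integrin probes did. The limma adjusted p was 0.993 for every integrin probe, so that the differences below are measured sizes and none is called as changed. Of the 3 probes that passed, 2 were for Ip6k1, the deleted gene, and the third, named after its values were seen, carries only the transcript cluster name TC1686295. The Ip6k1 probe A_51_P213766 read 0.35, 0.39, -6.88 and -6.80, and A_52_P413035 read 0.22, 0.41, -7.00 and -6.90, with no line of the deletion well above background on either. A further Ip6k1 probe, A_51_P103718, was above background in all lines at 2.46, 2.61, -1.98 and -1.23 (difference -4.13, SE 0.33, limma adjusted p = 0.368). The arrays thus carried the genotype on their labels. The fibroblast label was checked with 10 genes, Col1a1, Thy1, Pdgfra and Vim among them, of which all 10 were well above background in both Ip6k1+/+ lines and 9 to 10 in the Ip6k1-/- lines. Their summed linear signal, in units of the 75th percentile, was 547 to 564 in the Ip6k1+/+ lines and 479 to 529 in the Ip6k1-/- lines. Of their 14 tested probes 4 were saturated in at least 3 lines and enter this sum at their saturated value. Lower in Ip6k1-/- were 8 of the 14 (43.5% of all probes tested), 4 with no overlap (12.6% of all), and none was called. Their median was -0.65, beside 0.05 over all probes tested. Dcn, which encodes decorin, read 0.99, 1.89, -2.09 and 0.18 (difference -2.40, SE 0.82), and Pdgfrb, a growth factor receptor, read 4.67, 4.45, 3.34 and 3.39 (difference -1.20, SE 0.19). The other 6 of the 14 probes were higher (56.5% of all). Thy1, chosen after its values were seen, was higher on both tested probes (0.90, SE 1.93, and 1.03, SE 1.59). On A_52_P479249 it read 1.41, 6.02, 3.98 and 5.52, with the Ip6k1+/+ lines as the lowest and the highest. Of 27 markers of other cell types, 14 were above background in no line, among them Ptprc of blood cells, Cdh1 of epithelium, Pecam1 of endothelium and Myod1 of muscle. The summed endothelial signal, in which only Kdr of 5 genes was above background, was 0.123 to 0.172 in Ip6k1+/+ and 0.207 to 0.42 in Ip6k1-/- lines. Summed signals ran from 0.792 to 0.941 and from 0.729 to 0.921 for blood genes, from 4.47 to 4.53 and from 4.25 to 6.7 for epithelial genes, and from 7.06 to 10.3 and from 6.54 to 12.2 for neural genes, in the same order. Kdr had a difference of 1.56 (SE 0.55), Krt18 and Krt19 of epithelium -0.85 (SE 0.98) and 1.01 (SE 0.58), Cd14 and Cd68 of blood cells -0.31 (SE 0.28) and 0.68 (SE 0.40), and Nes and Tubb3 of neural cells 0.04 (SE 0.31) and 0.17 (SE 0.74). The part of these markers in the integrin values was not tested. In bulk RNA, fewer cells of a kind and less RNA per cell cannot be told apart.

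The integrin probes as a group had a median difference of 0.10, beside 0.05 over all probes tested, with 9 of 20 lower on average in Ip6k1-/- (43.5% of all probes tested) and 11 higher (56.5%). Both genotypes were fully apart for 10 of 20 integrin probes (31.5% of all), 4 with the Ip6k1-/- lines lower (12.6% of all) and 6 with them higher (18.8% of all). A mean at least 2-fold apart was found for 4 of 20 (5.95% of all). All 4 were lower in Ip6k1-/- (4.11% of all) and 0 higher (1.84% of all), being the 2 tested probes of Itga8 and the 2 of Itga1. The Itga1 pair was near background and entered the test only through the Ip6k1+/+ arrays, a filter that favours a lower mean in Ip6k1-/-. Under normexp background correction the Itga1 differences were -0.97 and -0.68 and left this set, while those of Itga8 were -1.52 and -1.64. An unadjusted limma p below 0.05 was reached by 3 probes (3.34% of all), the 2 for Itga8 lower (2.04%) and 1 for Itga3 higher (1.3%). For 14 of 20 integrin probes the larger gap between lines of the same genotype exceeded the difference between genotypes (80.9% of all). The family thus held no common direction, and individual subunits are described by ligand in what follows.

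**Figure D1:**
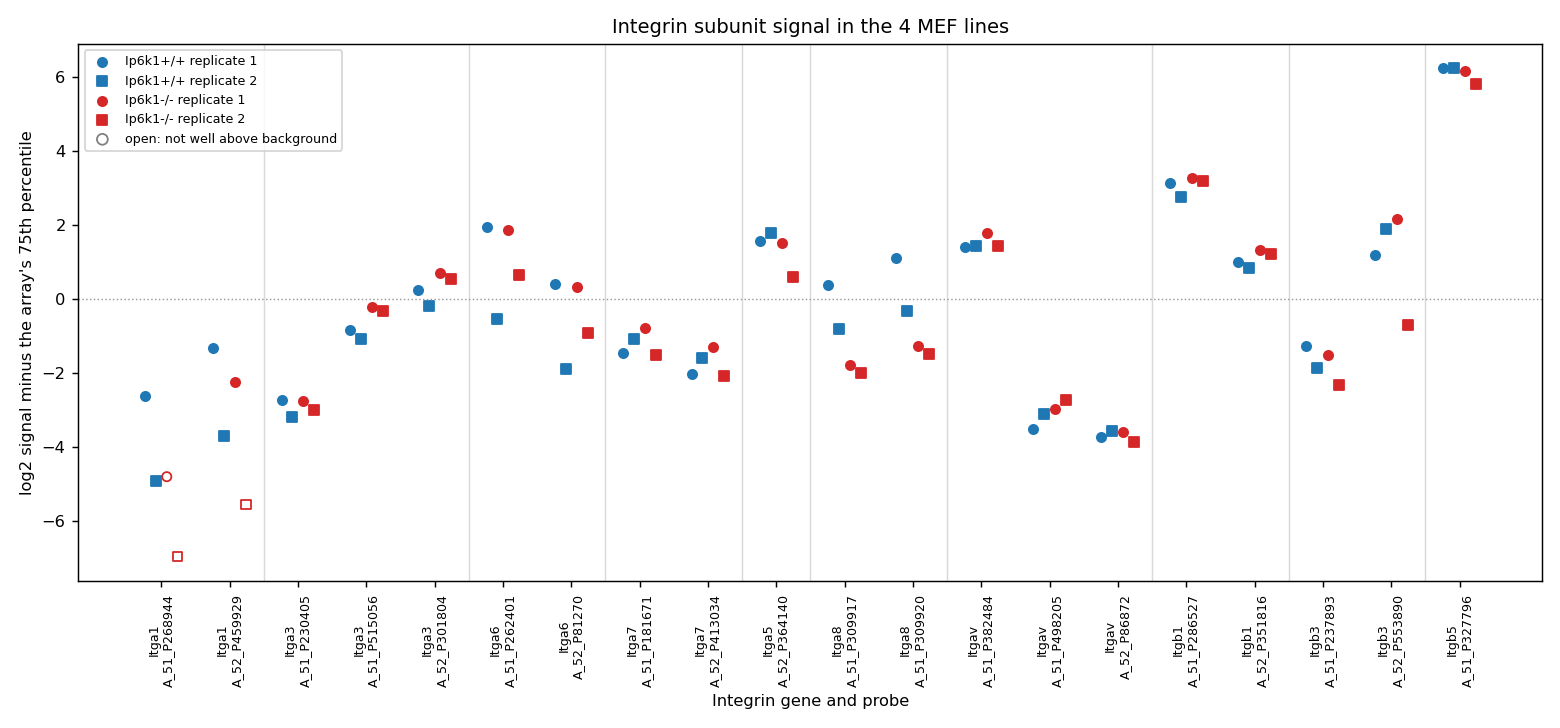
Signal of the 20 tested integrin probes in each line, as log2 signal minus the 75th percentile of the array (y axis), with blue for Ip6k1+/+, red for Ip6k1-/-, circles for replicate 1, squares for replicate 2 and open symbols where the probe was not well above background. The Itga8 probes show both red symbols below both blue ones, while the Itga6 and Itga1 probes spread more between lines of 1 genotype than between genotypes.

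Itga8, the alpha subunit that pairs with beta1 to bind nephronectin, fibronectin and other RGD ligands, was the subunit with the lowest signal in Ip6k1-/- relative to the spread between lines. Probe A_51_P309917 read 0.39, -0.81, -1.79 and -2.01. Probe A_51_P309920 read 1.10, -0.33, -1.28 and -1.48. On both probes the genotypes were fully apart, with the deletion lines lower, and the Ip6k1+/+ lines themselves stood 2.30-fold and 2.68-fold apart, against 1.16-fold and 1.15-fold between the Ip6k1-/- lines.

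The mean of the first Itga8 probe was -0.21 ± 0.85 in Ip6k1+/+ and -1.90 ± 0.16 in Ip6k1-/- (SD, n = 2 lines each). Its difference was -1.69 (SE 0.47, 95% interval -2.92 to -0.45), or 3.22-fold lower in Ip6k1-/-. On the second probe the means were 0.39 ± 1.01 and -1.38 ± 0.14, and the difference was -1.77 (SE 0.53, 95% interval -3.14 to -0.39), or 3.40-fold lower. The unadjusted limma p was 0.0177 and 0.0221 (adjusted p = 0.993 for both). Neither probe reached an unadjusted p of 0.05 in the methods' t-test, which uses only the probe's own lines. These probes read neighbouring stretches of 1 transcript and are not separate evidence. The direction did not rest on 1 line, but the size did: without Ip6k1+/+ replicate 1 the differences were -1.09 and -1.05, and without Ip6k1+/+ replicate 2 they were -2.29 and -2.48. The third Itga8 probe, which crosses an exon junction far upstream of this pair, was above background in no line and gives no second reading of the transcript.

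The other RGD-binding alpha subunits had smaller differences. Itga5, the fibronectin receptor alpha subunit, has 1 probe, which read 1.56, 1.78, 1.51 and 0.60. The Ip6k1-/- lines were both below the Ip6k1+/+ lines, replicate 1 by little and replicate 2 by more. The difference was -0.61 (SE 0.36, 95% interval -1.57 to 0.34), and it was -0.16 without Ip6k1-/- replicate 2 and -1.07 without Ip6k1-/- replicate 1.

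Itgav encodes alphaV, the partner of both beta3 and beta5 and a receptor for vitronectin. Its probe A_51_P382484 read 1.42, 1.43, 1.78 and 1.44, with a difference of 0.19 (SE 0.23), which was 0.36 without Ip6k1-/- replicate 2. The genotypes did not overlap, though Ip6k1-/- replicate 2 stood only 0.02 above the Ip6k1+/+ mean. Probe A_51_P498205 read -3.53, -3.12, -2.98 and -2.74, again with the Ip6k1-/- lines higher (difference 0.47, SE 0.34, or 0.27 without Ip6k1+/+ replicate 1). The third tested probe, A_52_P86872, was designed on a RIKEN cDNA and read -3.72, -3.56, -3.61 and -3.88, with overlapping genotypes and a difference of -0.10 (SE 0.33), or 0.03 without Ip6k1-/- replicate 2. The remaining 3 Itgav probes, also designed on RIKEN cDNAs, were above background in no line. Over the 6 tested probes of the RGD-binding alpha subunits the median difference was -0.36, with 4 lower, beside 43.5% of all probes tested.

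The laminin-binding alpha subunits Itga3, Itga6 and Itga7 were not lower on average in Ip6k1-/- on any of their 7 tested probes. The differences ran from 0.08 to 0.69 (median 0.46), and 56.5% of all probes tested were higher. Itga3, known from epithelium and kidney as a receptor for laminins of basement membranes, has 3 tested probes. Probe A_51_P515056 read -0.84, -1.08, -0.21 and -0.32, with both Ip6k1-/- lines above both Ip6k1+/+ lines. Its difference was 0.69 (SE 0.26, 95% interval 0.01 to 1.37), or 1.61-fold higher, with an unadjusted limma p of 0.0478 (adjusted p = 0.993). Probe A_52_P301804, which starts 327 bases from it, read 0.25, -0.19, 0.71 and 0.54, with the same order of genotypes and a difference of 0.59 (SE 0.27, 95% interval -0.11 to 1.30), or 0.37 without Ip6k1+/+ replicate 2. The third probe, A_51_P230405, starts 9171 bases away on the genome and crosses an exon junction. It read -2.75, -3.21, -2.77 and -3.02, with overlapping genotypes and a difference of 0.08 (SE 0.35), which turned to -0.15 without Ip6k1+/+ replicate 2 and to -0.04 without Ip6k1-/- replicate 1. The higher Itga3 signal was thus read by the neighbouring pair and not by the third probe.

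Itga6, which pairs with beta1 or beta4 to bind laminins, varied more between lines of 1 genotype than between genotypes. Probe A_51_P262401 read 1.95, -0.54, 1.86 and 0.64, and probe A_52_P81270 read 0.40, -1.91, 0.33 and -0.92. On both, replicate 1 of each genotype was high and Ip6k1+/+ replicate 2 was the lowest line. The Ip6k1+/+ lines were 5.61-fold and 4.95-fold apart and the Ip6k1-/- lines 2.33-fold and 2.37-fold. The differences were 0.55 (SE 0.92, 95% interval -1.87 to 2.96) and 0.46 (SE 0.89), and they turned to -0.70 on both probes without Ip6k1+/+ replicate 2. They also turned without Ip6k1-/- replicate 1, to -0.06 and -0.17. The remaining Itga6 probe, A_52_P324934, was above background in replicate 1 of each genotype and in neither replicate 2, and did not enter the test.

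Itga7, known as the laminin receptor alpha subunit of muscle, read -1.46, -1.08, -0.79 and -1.52 on probe A_51_P181671 and -2.02, -1.60, -1.30 and -2.09 on A_52_P413034. The genotypes overlapped, with the Ip6k1-/- lines as the highest and the lowest of the 4. Both differences were 0.12 (SE 0.38 and 0.40). They turned to -0.25 and -0.28 without Ip6k1-/- replicate 1, and to -0.07 and -0.09 without Ip6k1+/+ replicate 1.

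Itga1, the collagen-binding alpha subunit, had a lower mean in Ip6k1-/- on both tested probes, with a wide spread between lines and signals near background. Probe A_51_P268944 read -2.63, -4.93, -4.81 and -6.97, the last 2 not well above background. Ip6k1+/+ replicate 2 and Ip6k1-/- replicate 1 were nearly level, so that the genotypes overlapped. The dim arrays were given a floor, the dimmest probe still well above background there or this probe's own signal if brighter, and over that floor the Ip6k1+/+ mean was at least 1.91-fold higher (limma adjusted p = 0.993), on the measured means -3.78 and -5.89. Ip6k1+/+ replicate 2, at -4.93, lay below the mean floor of -4.71, so this bound rested on Ip6k1+/+ replicate 1. The measured difference of -2.11 became -0.96 when Ip6k1+/+ replicate 1 was left out, -1.03 when Ip6k1-/- replicate 2 was, and -3.26 and -3.19 when the other line of each genotype was.

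Probe A_52_P459929 of Itga1 read -1.33, -3.72, -2.23 and -5.55, the last not well above background. The difference was -1.37 (SE 1.36, 95% interval -4.94 to 2.20), and without Ip6k1-/- replicate 2 it was 0.29. Within Ip6k1+/+ the lines were 5.24-fold apart. The third probe, A_52_P518922, was above background in replicate 1 of each genotype and in neither replicate 2. In each genotype, replicate 1 was thus the higher line on all 3 Itga1 probes.

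**Figure D2:**
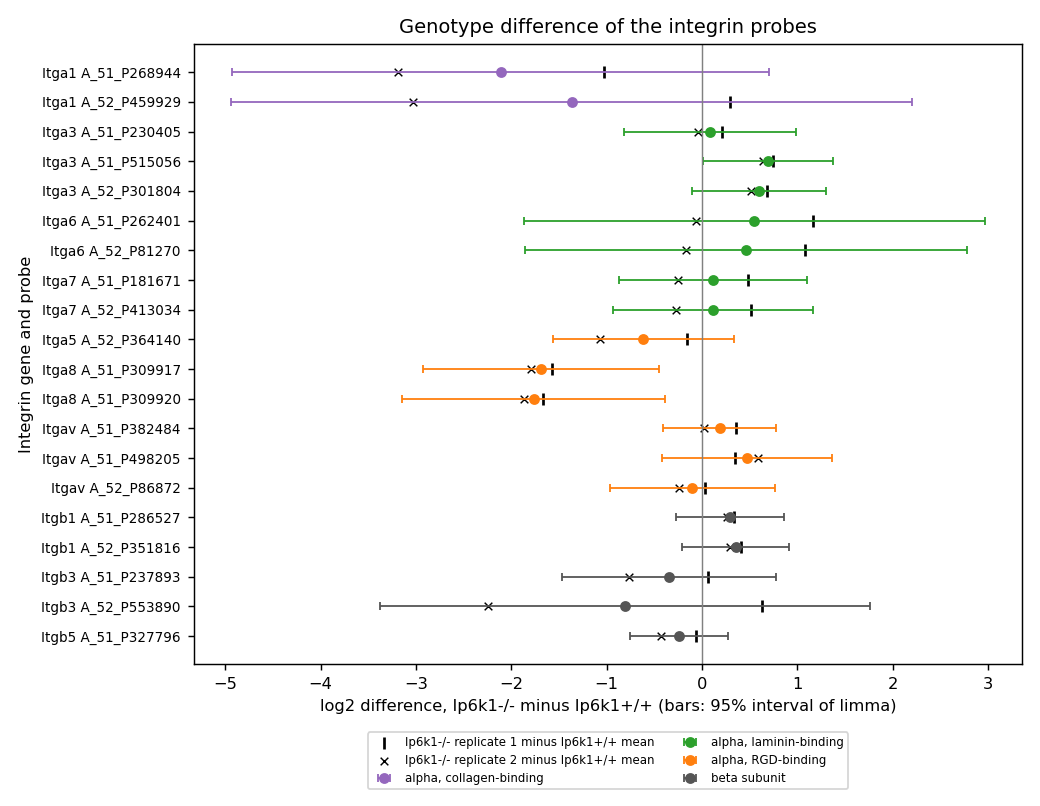
Difference between genotypes for the 20 tested integrin probes (x axis, log2, Ip6k1-/- minus Ip6k1+/+), with the 95% interval of limma as a bar, and the difference of each Ip6k1-/- line from the Ip6k1+/+ mean as a vertical tick (replicate 1) or a cross (replicate 2). The intervals of both Itga8 probes and of Itga3 A_51_P515056 leave out 0 before adjustment, and ticks and crosses lie far apart for Itga1 and for Itgb3 A_52_P553890.

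Of the beta subunits, Itgb1, the common partner of the collagen-, laminin- and most fibronectin-binding alpha subunits, was read by a probe printed in 10 spots on each array. This probe, A_51_P286527, read 3.14, 2.75, 3.28 and 3.20, with both Ip6k1-/- lines above both Ip6k1+/+ lines. Its spots varied by 1.56% to 2.55% (coefficient of variation within an array), with 1 outlier spot left out on each Ip6k1+/+ array, so that spot noise was small beside the 1.30-fold gap between the Ip6k1+/+ lines. The difference was 0.29 (SE 0.22, 95% interval -0.27 to 0.86), and it was 0.10 without Ip6k1+/+ replicate 2 and 0.49 without Ip6k1+/+ replicate 1. The second probe, A_52_P351816, read 1.01, 0.85, 1.34 and 1.23, with the same order of genotypes and a difference of 0.35 (SE 0.21, 95% interval -0.21 to 0.91). The remaining probe, A_52_P69236, is named in the array file as the beta1D form, known from striated muscle, and was above background in no line.

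Itgb5, which pairs with alphaV to bind vitronectin, has 1 probe, which read 6.24, 6.24, 6.18 and 5.81. The Ip6k1+/+ lines were level to 2 decimals and both Ip6k1-/- lines lay below them, replicate 1 by 0.06 and replicate 2 by 0.43. The difference was -0.24 (SE 0.20, 95% interval -0.76 to 0.27), or -0.06 with Ip6k1-/- replicate 1 as the only line of the deletion and -0.43 with replicate 2. No integrin probe was saturated in any line. In Ip6k1+/+ replicate 2, however, Itgb5 at 6.24 lay close to the Flna probe A_51_P151828, which was saturated there at 6.32. Compression of the Itgb5 signal near this ceiling was not tested.

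Itgb3, the beta subunit that pairs with alphaV as a vitronectin receptor, gave different patterns on its 2 probes. Probe A_51_P237893, the one with the TG run, read -1.28, -1.86, -1.51 and -2.33. Probe A_52_P553890, starting 3182 bases downstream, read 1.20, 1.90, 2.17 and -0.70. On the second probe Ip6k1-/- replicate 1 was the highest line and Ip6k1-/- replicate 2 the lowest, 7.32-fold apart, while on the first they were 1.78-fold apart. After each probe was centred on its own mean, the root mean square (RMS) distance between the pair was 0.88, against 0.02 to 0.35 for the other pairs of probes of 1 gene that were above background in all lines.

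The differences for Itgb3 were -0.35 (SE 0.43, 95% interval -1.47 to 0.78) and -0.81 (SE 0.98, 95% interval -3.37 to 1.76). Without Ip6k1-/- replicate 2 they were 0.07 and 0.63, so that the lower mean of both probes rested on that line. Over the 5 tested beta subunit probes the median difference was -0.24, and over the 15 alpha subunit probes it was 0.12.

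**Figure D3:**
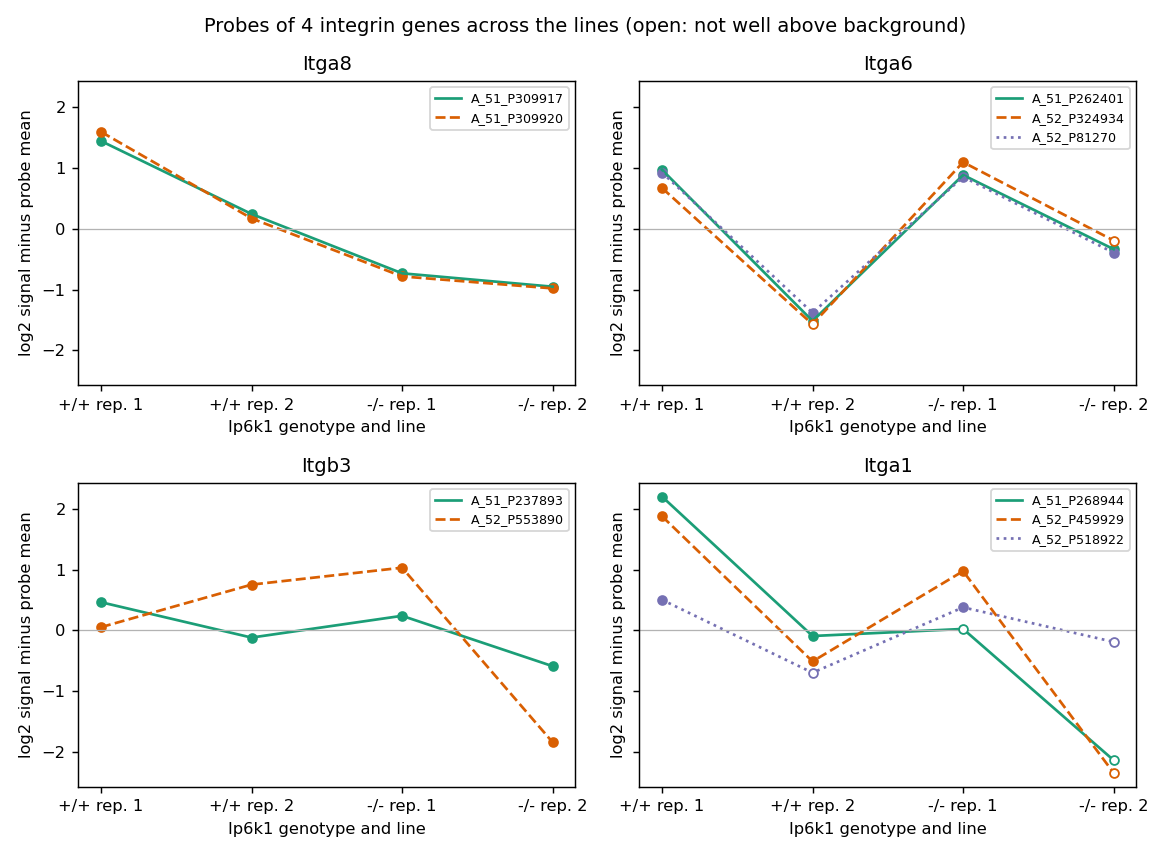
Probes of Itga8, Itga6, Itgb3 and Itga1 in the 4 lines (x axis), each as log2 signal minus that probe's own mean over the lines (y axis), with open symbols where not well above background; lines join the values of 1 probe and mark no order of samples. The probes of Itga8 and of Itga6 run together, while those of Itgb3 part at Ip6k1-/- replicate 2.

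The Ip6k1-/- lines differed from each other in the family as a whole. Relative to the Ip6k1+/+ mean, the median over the 20 integrin probes was 0.34 in Ip6k1-/- replicate 1, with 5 lower, and -0.25 in replicate 2, with 14 lower. Over all probes tested the medians were 0.03 and 0.08, with 9950 and 9258 of 21573 lower. The laminin-binding alpha subunits had medians of 0.68 and -0.06, the RGD-binding ones -0.06 and -0.66, and the beta subunits 0.33 and -0.43. Both Ip6k1-/- lines lay on the same side of the Ip6k1+/+ mean for 11 of 20 integrin probes, beside 62.1% of all probes tested. The subunits whose tested probes all had both Ip6k1-/- lines on 1 side were Itga5, Itga8 and Itgb5 (below) and Itgb1 (above).

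Some subunits had like patterns over the 4 lines. On the probe with the highest mean of each gene above background in all lines, the closest pairs were Itga3 with Itgb1 (RMS distance 0.15), Itgav with Itgb1 (0.18) and Itga7 with Itgav (0.19), all genes with little spread, and the farthest was Itga6 with Itgb3 (1.44). Among integrin probes above background in all lines, the one with the widest range, Itgb3 A_52_P553890, was compared with 19955 probes above background in all lines. The nearest gene names were 9030617O03Rik (RMS distance 0.16), Fam20a (0.17), ENSMUST00000112728 (0.20), Arhgap22 (0.22) and B930046C15Rik (0.25). With 4 lines, these distances are a description only.

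The array also carries 16 other integrin subunit genes, of which 8 were tested with 10 probes. Of these probes 7 were lower on average in Ip6k1-/- (median -0.22), 3 had both Ip6k1-/- lines below both Ip6k1+/+ lines and none was called, beside 43.5% and 12.6% of all probes tested. The median was 0.47 in Ip6k1-/- replicate 1 and -0.99 in replicate 2. The largest differences were those of Itga9, a receptor subunit for tenascin and osteopontin. Its probe A_51_P382970 read -3.59, -2.19, -4.32 and -3.61, with a difference of -1.07 (SE 0.60). Probe A_52_P542645 was not well above background in Ip6k1-/-, and the Ip6k1+/+ mean was at least 1.81-fold higher (limma adjusted p = 0.993), on the measured means -3.86 and -5.20. Ip6k1+/+ replicate 1, at -4.76, lay below the mean floor of -4.71, so this bound rested on Ip6k1+/+ replicate 2. Itga11, another collagen-binding alpha subunit of fibroblasts, was chosen after its values were seen. It read 5.19, 2.38, 5.26 and 0.56, with replicate 1 high and replicate 2 low in both genotypes, as for Itga1 and Itga6, and a difference of -0.88 (SE 1.79).

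The matrix ligands were described by lists, beside 43.5% of all probes lower, 12.6% with the Ip6k1-/- lines fully below and 18.8% fully above. Of 17 probes for 10 collagen chains, 14 were lower in Ip6k1-/-, 11 with no overlap, and the median was -0.81. The median was -0.61 in Ip6k1-/- replicate 1 and -0.96 in replicate 2. An unadjusted limma p below 0.05 was found for 8 of the 17, all lower (2.04% of all probes), and none passed adjustment. Col6a2, a chain of the microfibrillar collagen VI, read 1.74, 2.24, 0.72 and 0.26 on probe A_51_P279639, with a difference of -1.49 (SE 0.30). Col6a1, its partner chain, read 3.73, 4.22, 2.80 and 2.54, with a difference of -1.30 (SE 0.25). Col3a1, a fibrillar collagen, read 6.24, 5.90, 5.46 and 4.17 on probe A_51_P515605, with a difference of -1.25 (SE 0.46). All 3 had both Ip6k1-/- lines below both Ip6k1+/+ lines. One probe each for Col1a1 and Col1a2 was saturated in all 4 lines and gives only a bound there. The probes of Col1a1, Col1a2 and Col3a1 are also counted among the fibroblast markers above.

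Laminin chains, the ligands of alpha3, alpha6 and alpha7, had a median of 0.31 over 11 probes of 7 genes, with 5 lower and none called. The Ip6k1-/- lines differed in sign, with a median of 0.18 in replicate 1 (4 lower) and -0.39 in replicate 2 (6 lower). Lama4, the laminin alpha4 chain, read 1.01, -1.40, -0.93 and -3.68 on probe A_52_P7554 and had a difference of -2.03 (SE 1.18) on A_51_P212427. Replicate 1 was the higher line in both genotypes, and the difference on the first was -2.11 (SE 1.22, 95% interval -5.29 to 1.07). Of 22 probes for 13 genes listed as ligands of RGD-binding integrins, 14 were lower (median -0.23), 5 with no overlap, and 2 were higher with no overlap. Whether each of these proteins holds the tripeptide was not checked. The median was 0.22 in Ip6k1-/- replicate 1 and -0.22 in replicate 2. Periostin (Postn) and tenascin C (Tnc), chosen after their values were seen, were among the 5 lower with no overlap. Postn read 4.78, 6.04, 2.91 and 4.74, with a difference of -1.58 (SE 0.74). Tnc read -0.82, 0.60, -2.16 and -1.21 on probe A_51_P324992, with a difference of -1.58 (SE 0.61), while its other probes overlapped at -0.63 and -0.38. Fibulin-5 (Fbln5), an elastic fibre protein, was not well above background in Ip6k1+/+ on probe A_52_P278336, and the Ip6k1-/- mean was at least 2.08-fold higher (limma adjusted p = 0.993), on the measured means -5.37 and -4.10. The other Fbln5 probe had a difference of 0.30 (SE 0.41). Besides Fbln5 A_52_P278336, the probe higher with no overlap was that of Spp1, which was saturated in 3 lines and gives only a bound there. The Mfge8 probe was saturated in all 4 lines.

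Nephronectin (Npnt), the ligand of alpha8 beta1, and fibronectin (Fn1), that of alpha5 beta1, were chosen after their values were seen. Npnt read -3.21, -4.39, -4.56 and -4.61, with both Ip6k1-/- lines lower and a difference of -0.79 (SE 0.50, 95% interval -2.10 to 0.52). Its Ip6k1-/- values lay close to the mean floor of -4.71 of those arrays, and Ip6k1+/+ replicate 2 was little above them. Ip6k1+/+ replicate 1 was the high line here, as for Itga8. The 3 Fn1 probes had differences of -0.29, -0.23 and -0.27 (SE 0.19, 0.26 and 0.26).

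Inside the cell, integrins are activated by talins and kindlins and linked to actin through the ILK, PINCH and parvin complex. Of 24 probes for 13 genes of these activators and adaptors, 15 were lower (median -0.09), beside 43.5% of all probes tested. With no overlap, 4 were lower (12.6% of all) and 2 were higher (18.8% of all). None had an unadjusted limma p below 0.05 (3.34% of all). Lims2, which encodes PINCH2, read 2.93, 0.97, 0.85 and -0.49, with a difference of -1.77 (SE 0.80, 95% interval -3.86 to 0.31). Ptk2, which encodes focal adhesion kinase, had a difference of 1.47 (SE 1.39) on probe A_52_P58585, where Ip6k1+/+ replicate 1 was not well above background at -7.25 and the other 3 lines read -3.10 to -3.81. Its other probes A_51_P216219 and A_52_P359381 had differences of -0.30 and -0.14.

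Of 13 probes for 5 genes that hold integrins inactive, 7 were lower (median -0.01), beside 43.5% of all probes tested. Dok1, an adaptor that binds beta tails in place of talin, read 2.53, 2.90, 3.50 and 3.53 on probe A_51_P275976 and 1.64, 2.06, 2.67 and 2.66 on A_52_P366842. Both Ip6k1-/- lines were above both Ip6k1+/+ lines on both probes. The differences were 0.80 (SE 0.21) and 0.81 (SE 0.23), with unadjusted limma p of 0.015 and 0.0187 and no call after adjustment (adjusted p = 0.993).

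**Figure D4:**
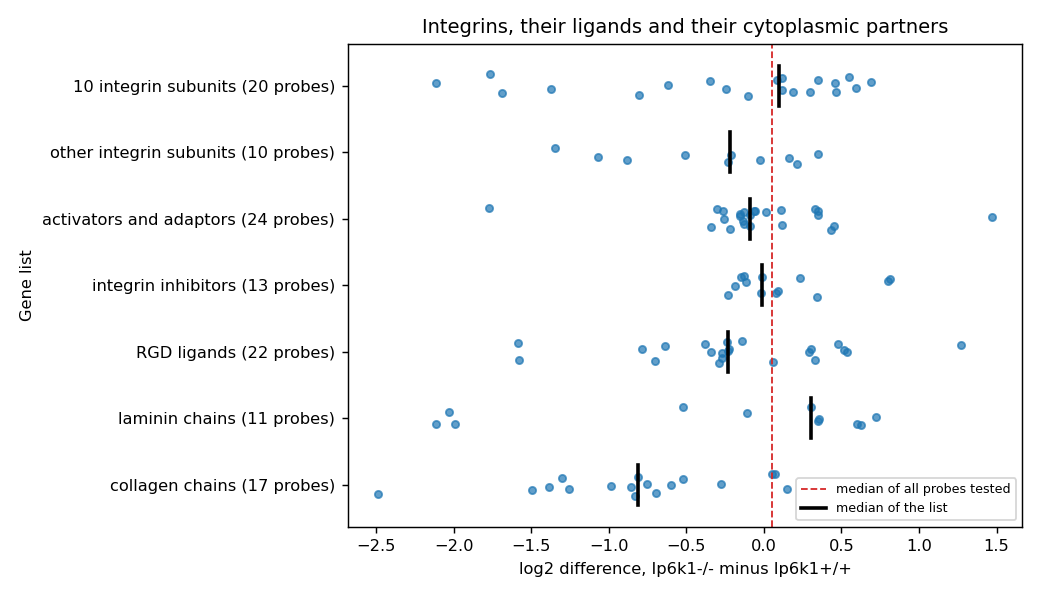
Difference between genotypes (x axis, log2, Ip6k1-/- minus Ip6k1+/+) of every tested probe in each list, with 1 point per probe, a black bar at the median of the list and a dashed line at the median of all probes tested (0.05). The integrin subunits scatter on both sides of 0 (median 0.10), while 14 of 17 collagen probes lie below it (median -0.81).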

How the data were processed

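The authors extracted RNA from the 4 MEF lines, labelled cRNA with Cy3 from an oligo-dT primer and scanned Agilent 4x44K arrays. They deposited the spot intensity of each array, background-corrected by Feature Extraction 10.5.1.1, and a value table on the log2 scale, shifted in GeneSpring by the 75th percentile of each array. From the deposited intensity, the log2 processed signal minus the 75th percentile of the 43379 non-control spots was taken on each array (percentile signal 610 to 747). Spots flagged as outliers (96 to 133 per array) were left out, and spots of 1 probe were averaged. Probes well above background on both arrays of a genotype were tested, 21573 of 41174. A probe dim in 1 genotype thus entered only through the other, which favours a higher mean in that other genotype. Genotypes were compared in limma 3.58.1 (R 4.3.3; lmFit, eBayes with trend, Benjamini-Hochberg over all probes tested), tested on simulated data. Oligo-dT priming and 60-base probes read stretches rather than whole transcripts. The number of arrays limits precision. The deposited log2 values differed from these by a constant per array (median deviation 0.0025), and are an alternative. Other alternatives changed background, scaling, filter, outliers, trend, block and arrays.

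Groups came from the labels. All members were named on every probe. In other lists, the 3 largest differences with an unadjusted p below 0.05 were named, or otherwise the largest 2, and the 5 gene names nearest to the widest member. Members and lists were chosen with earlier results of these data known.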

Additional observations from a re-analysis of the deposited data

How the results depend on the processing

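No integrin probe was called by limma under any setting. The methods' t-test without adjustment, which uses only a probe's own lines, gave 1 integrin probe, Itga3 A_51_P515056, and neither Itga8 probe. Over all probes it gave 849 (0 of all after Benjamini-Hochberg adjustment). The 3 calls over all probes became 0 under normexp background correction and under quantile normalization, 1 with no filter on dim probes, 1 over probes above background on all 4 arrays, and 0 to 0 with each array left out. Both genotypes were apart for 9 to 10 integrin probes under the settings that kept all arrays, and for 13 to 17 of the 20 with 1 array left out (16 without Ip6k1+/+ replicate 2, 17 without Ip6k1-/- replicate 1), since fewer lines overlap less often by construction. The median over the integrin probes ran from -0.25 (without Ip6k1-/- replicate 1) to 0.34 (without Ip6k1-/- replicate 2). With the replicate number as a block, 3 probes and 0 integrin probes were called and the median stayed at 0.10. The numbers were not taken as a pairing, since no label ties same-numbered lines and only 2 numbers exist. The difference of replicate 1 minus replicate 2 did correlate between genotypes (r = 0.48 over 21573 probes). A like order of replicates in both genotypes was thus not particular to Itga1, Itga6, Itga11 and Lama4.

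With 1 array left out, the lone line of a genotype was assumed to vary like the other genotype. All 178 integrin values under the other settings kept their direction. Of 80 with 1 array left out, 14 reversed, in ranges of -0.25 to 0.48 and -0.28 to 0.51 for Itga7 (A_51_P181671, A_52_P413034), -0.15 to 0.31 for Itga3 A_51_P230405, -0.76 to 0.067 and -2.24 to 0.63 for Itgb3 (A_51_P237893, A_52_P553890), -0.70 to 1.79 and -0.70 to 1.61 for Itga6 (A_51_P262401, A_52_P81270), -3.03 to 0.29 for Itga1 A_52_P459929, and -0.24 to 0.034 for Itgav A_52_P86872. Adjusted p from limma ranged from 0.344 to 1 for Itga8 A_51_P309917 over all settings.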
